A study of Mus musculus with 12 samples.

Results

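Gas5, 1110038B12Rik, Snhg1, Snhg3, Snhg5, Snhg6, Snhg8 and Snhg12 are mouse genes whose long noncoding RNAs carry small nucleolar RNAs (snoRNAs) in their introns. The 8 genes were taken by name from the 55266 genes in the table, and the list was chosen by their measured levels across time and fraction in these same libraries. Their levels and changes are therefore given as a description. Nothing is read from whether the fit over all genes called a member. Reads could be counted well for 4 of the 8: Gas5, 1110038B12Rik, Snhg5 and Snhg6 passed a minimum of 10 counts in at least 2 libraries, whereas Snhg1, Snhg3, Snhg8 and Snhg12 did not.

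The mouse embryonic stem cell line was E14, with the genotype 2C::3xtbGFP, in which tbGFP marks the 2-cell-like state that a few cells of such cultures enter. All 6 groups carried this reporter, were kept in serum and LIF, and had been plated without the 2 kinase inhibitors used for expansion. Sorbitol, which makes the medium hyperosmotic, had been present for 0, 6 or 24 h when the cells were harvested and sorted into tbGFP-negative and tbGFP-positive cells. Each of the 6 groups had 2 libraries of total RNA, 12 in all. The 0 h groups are the only ones without sorbitol, so its effect cannot be told apart from anything else that differed between harvests. Cells were sorted after the treatment, and a cell may have changed fraction in between. The labels do not say whether replicates were separate cultures, so the spread between these libraries may be technical. The SD below measures that spread within a group. The SE comes from a fit that shares its estimate of spread over genes and all 12 libraries.

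A snoRNA host gene makes a long RNA whose introns are cut out, and each snoRNA is trimmed from the excised intron. Box C/D snoRNAs guide methylation and box H/ACA snoRNAs guide pseudouridylation, mainly of ribosomal RNA. The spliced host RNA is often read by ribosomes and destroyed by nonsense-mediated decay, so that its level rises when translation slows. Several host genes, Gas5 among them, begin with a run of pyrimidines (a 5' terminal oligopyrimidine, or TOP, start), the mark of RNAs whose translation follows mTORC1. Gas5 was first described as an RNA that accumulates in cells whose growth is arrested.

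What the deposited counts hold decided what could be seen of these genes. Counts are given per annotated transcript, and a transcript had counts only where some of its exonic bases belonged to no other transcript on either strand. Of 36718 transcripts without such a base, 14 (0.0381%) had any count. None of the 1696 transcripts whose bases were their own on their strand but were shared with the other strand had a count. Of the 104818 transcripts with at least 1 such base, 67459 (64.4%) had counts. The files therefore behave as if reads that touch several transcripts were left out and strand was not used, and the exons that the many transcripts of a host gene share were not counted. For Gas5, 1110038B12Rik and Snhg5 the counts were almost all on retained-intron transcripts. Their levels below are those of intron RNA, and the spliced host RNA was not measured.

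**Figure D1:**
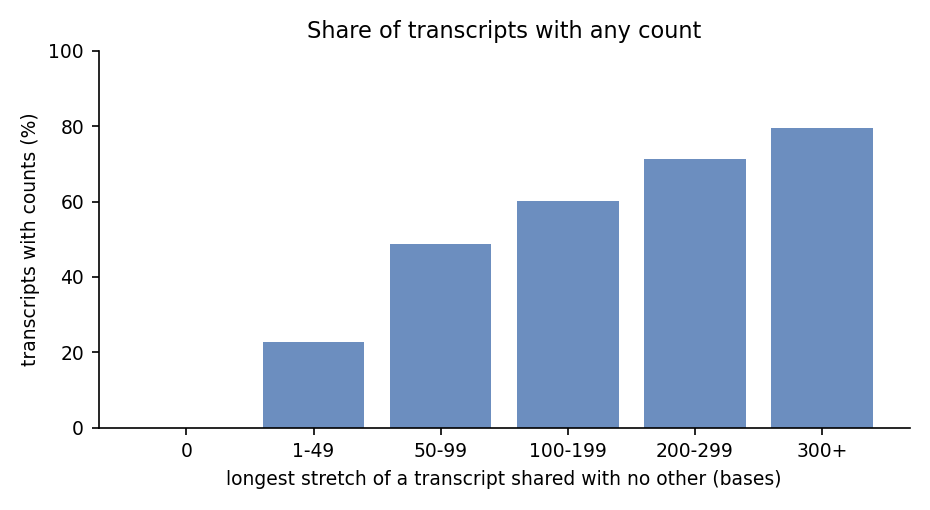
Share of annotated transcripts with any count over the 12 libraries (y axis, percent) by the longest stretch of the transcript that no other transcript covers on either strand (x axis, bases). The bars run from 0.0381% without such a stretch, through 22.8% for 1 to 49 bases, to 79.6% for 300 bases or more.

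For Gas5 this left mainly a single intron. The gene lies on chr1:161034422-161038539 (GRCm38, plus strand), has 25 annotated transcripts and holds 10 genes annotated as snoRNAs. Of its 10446 counts, 10438 (99.9%) were on transcripts annotated as retained introns, 10424 of them on Gas5-218, whose own stretches of 199 and 278 bases lie on either side of the snoRNA gene Gm26224. Together with the 80 bases of that snoRNA they make up the 557-base intron at chr1:161035195-161035751, which 15 of the 24 other transcripts splice out. For 1110038B12Rik (chr17:34950238-34952471, minus strand, 8 transcripts) all 16431 counts were on 2 retained-intron transcripts. The stretches of 1110038B12Rik-207, of 104 and 227 bases, lie on either side of Snord52 (a further 3 bases are at the end of the gene), and that of 1110038B12Rik-206, of 148 bases, holds no snoRNA. The stretches of 104, 227 and 148 bases lie inside a 1037-base intron that 3 other transcripts splice out.

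The counted sequence of these 2 genes is shown around the snoRNA, since the counts of Gas5-218 and 1110038B12Rik-207 came from intron sequence beside a snoRNA, whose own bases both annotations share. The lines give the strand of the gene, read from the GENCODE M21 transcripts, with the annotated snoRNA in capitals and 60 bases of counted intron in lower case on each side. RefSeq has 1 snoRNA that overlaps the 104-base stretch beside Snord52, so the annotations differ there. The first is chr1:161035334-161035533 and the second chr17:34950892-34951077 (GRCm38).
Gas5 intron with Gm26224: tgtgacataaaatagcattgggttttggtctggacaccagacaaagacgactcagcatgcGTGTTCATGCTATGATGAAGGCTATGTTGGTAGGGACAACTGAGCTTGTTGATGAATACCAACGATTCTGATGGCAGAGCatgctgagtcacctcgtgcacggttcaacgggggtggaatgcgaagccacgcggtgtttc
1110038B12Rik intron with Snord52: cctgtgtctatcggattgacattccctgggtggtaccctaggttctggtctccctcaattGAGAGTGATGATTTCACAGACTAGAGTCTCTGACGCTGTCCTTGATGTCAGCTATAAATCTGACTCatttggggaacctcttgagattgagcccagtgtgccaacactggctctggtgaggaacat

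The other measurable pair differed in what was counted. Snhg5 (chr9:88521050-88522929, minus strand, 6 transcripts, with the snoRNA genes Snord50a and Snord50b) had 1629 of 1637 counts on Snhg5-206, a retained intron. Its own stretch is a whole 331-base intron, chr9:88521976-88522306, that holds no snoRNA. Snhg6 (chr1:9941959-9944118, minus strand, 5 transcripts, with Snord87) had all 1747 counts on Snhg6-205, whose own stretch is 326 bases of a longer exon, and 3 of the other 4 transcripts have an intron there. No gene annotated on the opposite strand spans any of these stretches. Zbtb37, which overlaps Gas5 elsewhere on the other strand, went the other way at 6 h in tbGFP-negative cells. It went from 44.6 ± 0.0538 CPM (counts scaled to the size of the library) at 0 h to 15.9 ± 1.92 (SD, n = 2). At 24 h it stood at 49.8 ± 4.6 there. Its tbGFP-positive libraries read 22.9 and 38.4 at 0 h and 29.2 and 7.07 at 6 h. Mcmdc2, which overlaps Snhg6 elsewhere on the other strand, went the same way as Snhg6 at 6 h. It went from 7.57 ± 1.77 to 9.92 ± 1.5 in tbGFP-negative cells and from 1.08 ± 1.18 to 6.28 ± 0.892 in tbGFP-positive cells. The part of reads from the other strand was not tested.

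Snhg1, Snhg3, Snhg8 and Snhg12 had almost nothing that could be counted. Their longest own stretches were 61, 54, 74 and 12 bases. Snhg1, a host of 8 snoRNA genes, and Snhg3, the host of Snora73a and Snora73b, had 0 counts in all 12 libraries. Snhg8, the host of Snora24, had 3 counts, all in tbGFP-negative replicate 1 at 24 h, and Snhg12 had 2, both in tbGFP-negative replicate 2 at 6 h. A count of 0 allows up to 3 counts, or 0.38 to 1.3 CPM in these libraries, from counting error alone, but with so few countable bases it sets no limit on the RNA. The snoRNAs inside the 8 genes had 0 counts apart from 162 for Snord87, so nothing is known here of the mature snoRNAs.

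**Figure D2:**
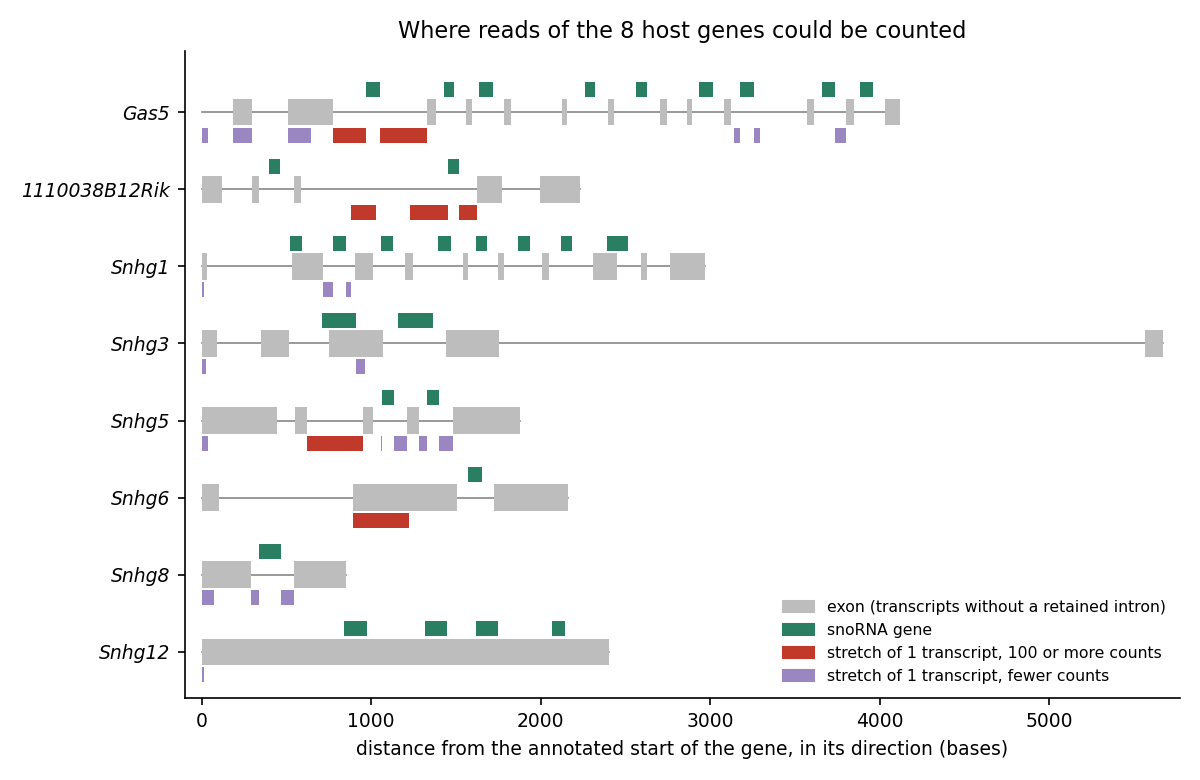
Maps of the 8 host genes, drawn to scale from the annotated start of each gene in its own direction (x axis, bases). Grey boxes are exons of transcripts without a retained intron, green boxes snoRNA genes, and red and purple boxes the stretches of 1 transcript that no other covers, red where that transcript had 100 or more counts. In Gas5 and 1110038B12Rik red stretches lie on both sides of a snoRNA, with another apart from it in 1110038B12Rik, in Snhg5 they fill an intron without one, and Snhg1, Snhg3, Snhg8 and Snhg12 have no red stretch.

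The starts of these genes are shown because of the TOP start. RefSeq promoters (GRCm38.p6) were found for 7 of the 8 genes, 9 in all. A start was called TOP-like where the first base was C and at least 4 more C or T followed. This held for 3 of the 9 promoters, and over all 32851 promoters for 2.51%. The lines give 40 bases before the start in lower case and then 30 bases from the start, with the first run of pyrimidines in capitals, at the second of 2 listed starts of Gas5 (window within chr1:161034916-161035215), the second of 2 of 1110038B12Rik (within chr17:34952419-34952718) and the start of Snhg8 (within chr3:123508287-123508586).
Gas5: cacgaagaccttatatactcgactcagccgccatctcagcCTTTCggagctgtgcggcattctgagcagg
1110038B12Rik: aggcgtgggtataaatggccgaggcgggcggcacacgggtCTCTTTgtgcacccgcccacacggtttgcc
Snhg8: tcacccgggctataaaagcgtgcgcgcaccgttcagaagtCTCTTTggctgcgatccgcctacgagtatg
Snhg12 began with 6 pyrimidines whose first base was T, Snhg1 with CTC followed by A, and Snhg3 and Snhg5 with a purine. A TATAAA on either strand within 50 bases before the start stood in 5 of the 9 promoters, at 1110038B12Rik (both starts, which overlap), Snhg1, Snhg5 and Snhg8, against 3.5% of all promoters. These matches describe the letters only.

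The libraries held 2306870 to 7900178 counts, and pluripotency markers were present in all 12, 6 of 6 with a summed level of 1360 to 2590 normalised CPM. The 10 markers of the 2-cell-like state summed to 28900 to 46900 in tbGFP-positive libraries and to 14.1 to 728 in tbGFP-negative ones, with the highest negative values at 24 h. Trophectoderm markers summed to 113 and 116 in tbGFP-positive libraries at 6 h and to at most 67.9 elsewhere; their part in the results was not tested. At 0 h, tbGFP-positive replicate 2 had counts for 18600 genes and tbGFP-negative replicate 1 for 18674, the latter on 2306870 counts. The tbGFP-positive libraries at 6 h stood apart, with counts for 17445 and 17545 genes and a correlation between replicates of 0.89, where the other groups had 18600 to 26069 genes and 0.96 to 0.981. Results that use that group rest on these 2 libraries, and leaving out either of them turned the sign of no Gas5 or 1110038B12Rik change with time. Below, a level is CPM scaled with TMM factors (normalised CPM), given as mean ± SD with n = 2 libraries, and a change is a log2 fold change ± SE from edgeR's quasi-likelihood fit over 19384 genes.

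Gas5 intron RNA was low before sorbitol and higher at both later times. The tbGFP-negative libraries read 69.6 and 73.5 without sorbitol, 284 and 270 after 6 h, and 131 and 123 after 24 h. The tbGFP-positive libraries read 48.7 and 50.2, then 168 and 161, then 183 and 170. Both libraries of each later group lay above both libraries at 0 h of the same fraction. The negative cells peaked at 6 h and came down by 24 h without reaching the level at 0 h, whereas the positive cells stayed up.

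Against 0 h the change in Gas5 in tbGFP-negative cells was 1.95 ± 0.17 at 6 h, a 3.87-fold difference, and 0.83 ± 0.17 at 24 h, 1.78-fold. In tbGFP-positive cells it was 1.74 ± 0.17 at 6 h and 1.84 ± 0.17 at 24 h, 3.33-fold and 3.58-fold. The order of the group means was tbGFP-negative cells at 6 h (277 ± 10.5), tbGFP-positive at 24 h (177 ± 9.09), tbGFP-positive at 6 h (165 ± 4.71), tbGFP-negative at 24 h (127 ± 5.54), tbGFP-negative at 0 h (71.5 ± 2.80) and tbGFP-positive at 0 h (49.4 ± 1.11). No neighbouring groups overlapped, but the later and the earlier tbGFP-positive group under sorbitol differed by only 1.68 times their pooled SD.

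1110038B12Rik, the host of Snord52, moved further. Its tbGFP-negative libraries read 42.8 and 56.4 without sorbitol. After 6 h their mean was 590 ± 87.1, on 3898 and 2550 counts, and after 24 h they read 165 and 167. The tbGFP-positive libraries read 51.7 and 58.1, then 357 and 314, then 202 and 205. Here both fractions were highest at 6 h, and at 0 h the 2 fractions overlapped.

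The change in 1110038B12Rik at 6 h was 3.56 ± 0.20 in tbGFP-negative cells, 11.8-fold, and 2.61 ± 0.19 in tbGFP-positive cells, 6.11-fold. At 24 h it was 1.73 ± 0.19 and 1.89 ± 0.19, 3.31-fold and 3.70-fold. Per kilobase of counted sequence the level at 6 h in tbGFP-negative cells was 1220 CPM for 1110038B12Rik, 581 for Gas5, 161 for Snhg6 and 54.0 for Snhg5. At 0 h in the same fraction it was 150 for Gas5 and 103 for 1110038B12Rik. These values divide by the full length of the stretches. The files behave as if reads reaching past a stretch were left out, and the stretches differ in length between genes. The order of the genes can therefore not be read from them.

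**Figure D3:**
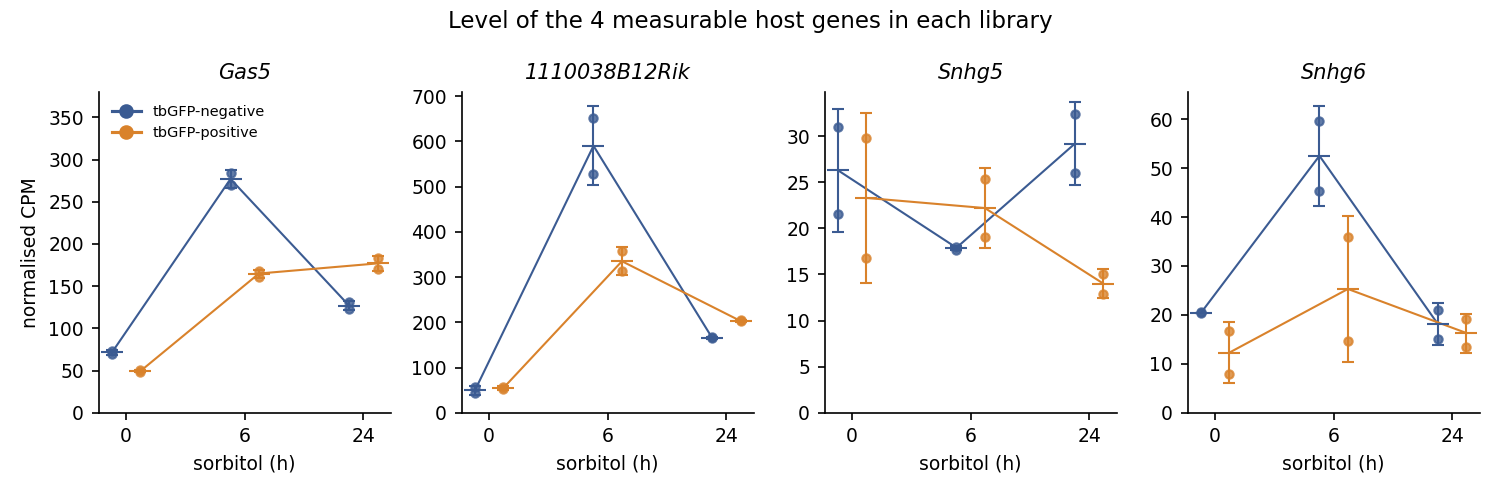
Level of the 4 measurable host genes (y axis, normalised CPM, starting at 0 with a scale for each gene) at 0, 6 and 24 h of sorbitol (x axis, evenly spaced), in tbGFP-negative (blue) and tbGFP-positive (orange) cells. Points are libraries, dashes means and bars SD (n = 2). Gas5 and 1110038B12Rik are above 0 h in every later library, Snhg6 is highest in tbGFP-negative cells at 6 h, and Snhg5 shows no such peak.

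The 2 transcripts of 1110038B12Rik moved together. Fitted singly, 1110038B12Rik-207, whose stretches flank Snord52, changed at 6 h in tbGFP-negative cells by 3.43 ± 0.24 and 1110038B12Rik-206, without a snoRNA, by 3.39 ± 0.25. The share of the counts that fell on 1110038B12Rik-207 was 57.6% to 68.1% over the 12 libraries. The 2 tbGFP-positive libraries at 6 h were the widest apart, at 68.1% (exact 95% interval 65.4% to 70.7%, counting error only) and 58.7% (56.6% to 60.8%). The other 10 libraries ran from 57.6% to 66.5%.

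At 6 h the median change of retained-intron transcripts was below 0. Of 6706 retained-intron transcripts tested singly, 30 (0.447%) were called higher and 40 (0.596%) lower at 6 h in tbGFP-negative cells at an adjusted p below 0.05 (edgeR's quasi-likelihood test, Benjamini-Hochberg adjustment), and their median change was -0.50, against 1.82 ± 0.19 for Gas5-218. In tbGFP-positive cells 64 (0.954%) were called higher and 386 (5.76%) lower, with a median of -0.55, against 1.66 ± 0.19 for Gas5-218. In the tbGFP-negative libraries, retained-intron transcripts held 2.92% and 3.48% of all counts without sorbitol, 2.32% and 2.58% after 6 h and 4.44% and 4.51% after 24 h. In the tbGFP-positive libraries they held 2.3% and 2.33% at 0 h, 2.74% and 2.3% after 6 h and 2.61% and 3.04% after 24 h. The median change of these transcripts after 24 h was 0.50 in tbGFP-negative and 0.35 in tbGFP-positive cells, beside 0.83 ± 0.18 and 1.89 ± 0.19 for Gas5-218. No median or share called was taken over all 27096 transcripts of that fit. Whether the shift is particular to retained-intron transcripts is therefore not known. Its part in the Gas5 values was not tested.

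Snhg5 did not follow. Its tbGFP-negative libraries read 21.6 and 31.0 without sorbitol, 17.7 and 18.0 after 6 h and 26.0 and 32.4 after 24 h. The tbGFP-positive ones read 16.8 and 29.8, then 25.3 and 19.1, then 12.9 and 15.1. The changes against 0 h were -0.57 ± 0.37 and 0.14 ± 0.36 in tbGFP-negative cells and -0.07 ± 0.37 and -0.73 ± 0.37 in tbGFP-positive cells. Both libraries lay below those at 0 h in the first and the last of these, and tbGFP-positive cells at 24 h lay below all other groups.

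Snhg6, counted on part of an exon, was highest in tbGFP-negative cells at 6 h. That fraction read 20.5 and 20.4 without sorbitol, 45.3 and 59.7 after 6 h, and 21.1 and 15.0 after 24 h. The tbGFP-positive libraries read 16.8 and 7.88, then 14.7 and 35.9, then 13.4 and 19.1. Apart from the highest group, each group overlapped the next in the order of means. The change at 6 h was 1.36 ± 0.45 in tbGFP-negative cells, where the libraries at 6 h lay above those at 0 h, and 1.04 ± 0.45 in tbGFP-positive cells, where they overlapped. At 24 h the changes were -0.17 ± 0.44 and 0.39 ± 0.45.

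In the fit over all genes, Gas5 and 1110038B12Rik passed an adjusted p of 0.05 as higher in each of the 4 comparisons with 0 h, and Snhg5 and Snhg6 in none. Over all genes 3.22% were called higher and 1.21% lower after 6 h in tbGFP-negative cells, and 2.70% and 1.29% after 24 h. The same shares were 2.14% and 3.76% in tbGFP-positive cells after 6 h and 0.304% and 0.248% after 24 h. In tbGFP-negative cells after 6 h this was 625 genes higher and 235 lower, and by library totals alone 339 higher and 576 lower. After 24 h the split in that fraction was 524 and 250, or 412 and 408 with upper-quartile factors, and in tbGFP-positive cells 59 and 48, or 68 and 28 by library totals. Because the members were chosen on these values, nothing is read from the 2 of 4. The median change over all genes was 0.05, 0.23, -0.05 and 0.09 in the same order, and the medians of the 4 members were 1.66, 0.48, 1.39 and 1.11.

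Between the sorted fractions, the sign of the Gas5 and 1110038B12Rik differences was not the same at all 3 times. Gas5 was lower in tbGFP-positive than in tbGFP-negative cells at 0 h, by -0.54 ± 0.17, and at 6 h, by -0.75 ± 0.16, and it was higher at 24 h, by 0.48 ± 0.16. The 2 libraries of each fraction did not overlap at any of the 3 times. 1110038B12Rik overlapped at 0 h (0.13 ± 0.19), was lower in tbGFP-positive cells at 6 h (-0.82 ± 0.18) and higher at 24 h (0.29 ± 0.18). Snhg5 differed by -0.19 ± 0.37, 0.30 ± 0.37 and -1.05 ± 0.37 at the 3 times, and Snhg6 by -0.71 ± 0.46, -1.03 ± 0.44 and -0.15 ± 0.44.

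Of these 12 differences, those of Gas5 and 1110038B12Rik at 6 h passed an adjusted p of 0.05 in the fit. The members were chosen on these values, so nothing is read from which of them passed, nor from the gap values below. Over all genes 6.92% were called higher and 5.22% lower in tbGFP-positive cells at 6 h. At 0 h these shares were 6.66% and 0.449%, and at 24 h 5.35% and 0.113%, and no member was called at either time. The split of higher and lower genes depended on scaling here too, at 0 h 1291 and 87 or 1078 and 811 by library totals, at 6 h 1342 and 1012 or 1182 and 2454 with upper-quartile factors, and at 24 h 1037 and 22 or 884 and 422 by library totals. These differences depend on the scaling. At 0 h Gas5 differed by -0.92 with upper-quartile factors and by -0.98 by library totals alone, and 1110038B12Rik by -0.25 and -0.31. At 24 h Gas5 differed by 0.28 and 0.05, and 1110038B12Rik by 0.10 and -0.13. The change in the Gas5 gap between fractions from 0 h to 24 h was 1.01 ± 0.23 and from 0 h to 6 h -0.21 ± 0.23. For 1110038B12Rik these were 0.16 ± 0.26 and -0.95 ± 0.26. None of the 8 such values of the 4 members passed an adjusted p of 0.05, which 0.970% and 0.170% of genes did for 24 h and 6 h.

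**Figure D4:**
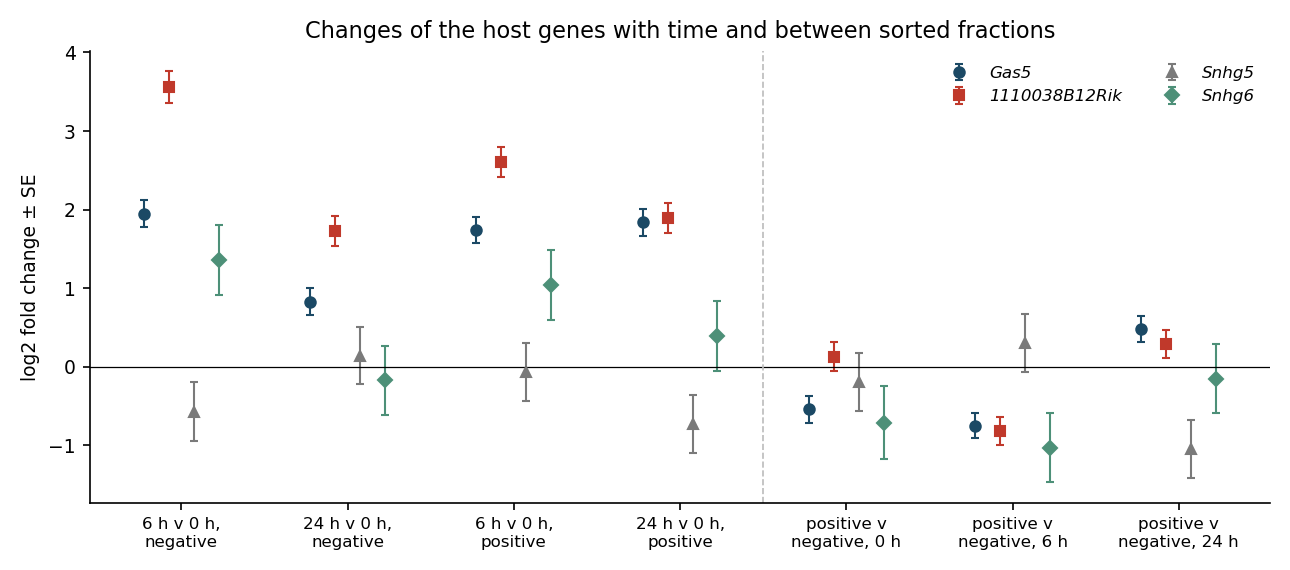
Log2 fold changes ± SE (y axis) of Gas5 (circles), 1110038B12Rik (squares), Snhg5 (triangles) and Snhg6 (diamonds) in the 7 comparisons (x axis), with comparisons over time left of the dashed line and comparisons of fractions right of it. 1110038B12Rik at 6 h in tbGFP-negative cells is highest at 3.56, and between fractions the values lie from -1.05 to 0.48.

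Other host genes were found by position: a gene of a long noncoding class with a snoRNA gene wholly inside it on the same strand. There were 61 besides the members, of which 42 had counts and 25 could be tested. At 6 h, 6 of the 25 (24.0%) rose in tbGFP-negative cells and 6 (24.0%) in tbGFP-positive cells, where 3.22% and 2.14% of all genes did, and none fell. The 5 that rose in both fractions were Rian, Snhg14, Gm26945, Gm29170 and Zfas1. These 2 comparisons share no library. The median change of the 25 was 0.59 and 0.63, against 0.05 and -0.05 for all genes.

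Rian, an imprinted gene of the Dlk1-Dio3 region that holds 13 annotated snoRNA genes, read 107 and 129 in the tbGFP-negative libraries without sorbitol, 695 and 536 after 6 h and 158 and 141 after 24 h. The tbGFP-positive libraries read 47.1 and 59.6, then 337 and 416, then 165 and 171. It rose at 6 h by 2.38 ± 0.20 (adjusted p = 8.82e-06) and by 2.82 ± 0.21 (adjusted p = 5.48e-06), and at 24 h in tbGFP-positive cells by 1.66 ± 0.20 (adjusted p = 0.00118; edgeR, quasi-likelihood test, Benjamini-Hochberg, here and below). These 3 calls were lost in 0 of 21, 0 of 20 and 0 of 21 alternatives. Gm26945 lies within Rian on the same strand, so its rises of 2.09 ± 0.35 and 3.52 ± 0.39 need not be a separate event.

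Snhg14, the imprinted host of the Snord115 and Snord116 clusters, with 208 annotated snoRNA genes, went from 30.5 and 37.4 to 180 and 184 in tbGFP-negative cells at 6 h, a rise of 2.41 ± 0.26 (adjusted p = 0.000103). The tbGFP-positive libraries went from 38.9 and 60.3 to 159 and 203, a rise of 1.87 ± 0.26 (adjusted p = 0.00148). At 24 h it stood at 46.4 and 57.1 and at 71.6 and 51.6, and neither passed the test. Zfas1, with 100% of its counts on retained-intron transcripts, rose by 1.49 ± 0.35 (adjusted p = 0.0223) and by 2.33 ± 0.36 (adjusted p = 0.00282). Its tbGFP-positive libraries at 6 h read 238 and 90.0, both above 35.9 and 29.0 at 0 h.

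Gm29170, annotated as sense intronic, rose by 1.56 ± 0.30 (adjusted p = 0.00802) and 1.19 ± 0.29 (adjusted p = 0.0311). The rise of 2410006H16Rik, with 3 snoRNA genes, in tbGFP-negative cells was 1.45 ± 0.24 (adjusted p = 0.00305), from 168 and 159 to 461 and 431. Gm28496 passed the test in tbGFP-positive cells, with 1 count at 0 h and 100 at 6 h. Snhg15 and Snhg17, hosts with names of the same series, did not pass: in the tbGFP-negative libraries Snhg15 read 30.5 and 38.0 without sorbitol and 57.7 and 79.1 after 6 h, and Snhg17 read 55.4 and 67.4, then 44.3 and 52.0.

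Which library was left out changed these counts. In tbGFP-negative cells at 6 h the number called was 3 without replicate 1 of tbGFP-negative cells at 0 h, 2 without its replicate 2, 2 without replicate 1 of tbGFP-negative cells at 6 h, and 10 without either tbGFP-positive library at 6 h, 9 of them higher. With only the 4 tbGFP-positive libraries of 0 and 6 h in the fit, 1 was called in that fraction. Among single genes, the Zfas1 call in tbGFP-negative cells was lost in 6 of 20 alternatives, 5 of them without 1 library, and that of Gm29170 in tbGFP-positive cells in 11 of 20. In tbGFP-negative cells the calls of 2410006H16Rik, Gm26945 and Gm29170 were each lost in 3 of 21, and that of Snhg14 in 0 of 21. In tbGFP-positive cells the call of Gm28496 was lost in 5 of 18, those of Gm26945 and Snhg14 each in 1 of 20, and that of Zfas1 in 1 of 19.

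**Figure D5:**
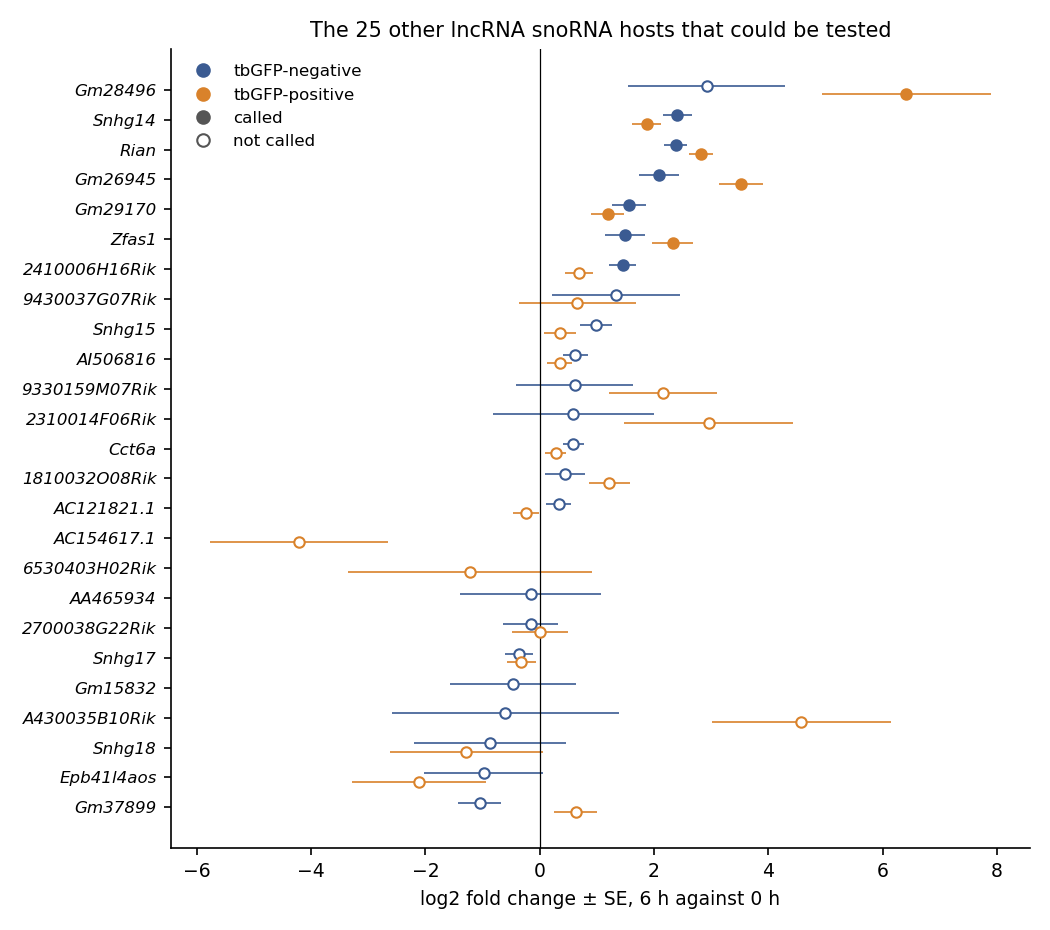
Log2 fold changes ± SE at 6 h against 0 h (x axis) of the 25 other long noncoding snoRNA hosts (y axis) in tbGFP-negative (blue) and tbGFP-positive (orange) cells, filled where called at an adjusted p below 0.05. Values against a group without counts are not drawn. Rian, Snhg14, Gm26945, Gm29170 and Zfas1 are filled and above 0 in both fractions, and wide bars mark genes with few counts.

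At 24 h none of the 25 was called in tbGFP-negative cells and Rian alone in tbGFP-positive cells. These were 0.0% and 4.0% called higher, against 2.70% and 0.304% of all genes. None was called lower, against 1.29% and 0.248%. Between fractions Rian (-1.15 ± 0.20, adjusted p = 0.000963) and Gm26945 (-1.51 ± 0.38, adjusted p = 0.0221) were lower in tbGFP-positive cells at 0 h, the latter call being lost without any single library of that time. At 6 h 5 were lower, AC121821.1 (-1.15 ± 0.23, adjusted p = 0.00355), Gm15832 (0 counts against 48), 2410006H16Rik (-1.03 ± 0.24, adjusted p = 0.0103), Snhg15 (34.3 ± 6.34 against 68.4 ± 15.2, adjusted p = 0.0313) and Rian (-0.71 ± 0.19, adjusted p = 0.0244), and 1 was higher, A430035B10Rik (80 counts against 1). At 24 h AC154617.1 was higher (63 counts against 0), a call lost without any single library of that time. Of the 25, 0.0% were called higher and 8.0% lower at 0 h, against 6.66% and 0.449% of all genes. At 6 h 4.0% and 20.0% were, against 6.92% and 5.22%, and at 24 h 4.0% and 0.0%, against 5.35% and 0.113%. Among the calls at 6 h, A430035B10Rik was lost in 6 of 18 alternatives and Gm15832 in 1 of 19. AC121821.1, 2410006H16Rik, Snhg15 and Rian were each lost in 2 of 20. The number called at 6 h was 2 without replicate 1 of tbGFP-negative cells, 12 without replicate 2 of tbGFP-positive cells, and 0 with only the 4 libraries compared.

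Protein-coding snoRNA hosts stayed nearer to all genes. Of 259 found by position, 210 could be tested. At 6 h 12 (5.71%) rose and 1 (0.476%) fell in tbGFP-negative cells, against 3.22% and 1.21% of all genes. In tbGFP-positive cells 9 (4.29%) rose and 7 (3.33%) fell, against 2.14% and 3.76%. The medians were 0.04 and 0.03. Eif2ak3, which encodes the stress kinase PERK, rose by 1.65 ± 0.27 (adjusted p = 0.00246) in tbGFP-negative cells, from 29.0 ± 10.5 to 89.4 ± 0.184. Trpm2, a cation channel, also passed there on 6 counts at 0 h and 67 at 6 h (adjusted p = 0.049), and Etl4 fell by -1.95 ± 0.50 (adjusted p = 0.0356). The largest differences called at 6 h in tbGFP-positive cells were genes without counts at 6 h, Rab3gap2 (44 counts at 0 h), Ranbp1 (20) and Cdh13 (17).

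After 24 h 3 of the 210 (1.43%) rose and 2 (0.952%) fell in tbGFP-negative cells, against 2.70% and 1.29% of all genes. In tbGFP-positive cells 1 (0.476%) rose and 1 (0.476%) fell, against 0.304% and 0.248%. Samd12 rose at 24 h in tbGFP-negative cells by 1.96 ± 0.49 (adjusted p = 0.034). Taf1d, a subunit of the RNA polymerase I factor SL1 and a host of several snoRNAs, rose at 24 h by 1.19 ± 0.17 (adjusted p = 0.000482) in tbGFP-negative and by 0.95 ± 0.17 (adjusted p = 0.0187) in tbGFP-positive cells. Tex14 fell at 24 h in both, by -2.23 ± 0.24 (adjusted p = 4.29e-05) and -1.23 ± 0.23 (adjusted p = 0.0269). Single libraries moved these counts. In tbGFP-negative cells at 6 h the number called was 3 without either tbGFP-negative library of 0 h or without replicate 1 of 6 h, 6 without replicate 2 of 6 h, and 36 without either tbGFP-positive library of 6 h. In tbGFP-positive cells it was 37 and 65 without replicate 1 and 2 of 6 h, and 6 to 10 without any other single library. In tbGFP-negative cells at 24 h 5 were called, but 2 without any single tbGFP-negative library of 0 h or 24 h, 3 without replicate 1 of tbGFP-positive cells at 24 h, 8 without replicate 1 of those at 0 h, and 22 without either of those at 6 h. In tbGFP-positive cells at 24 h Taf1d and Tex14 were the only calls, and both were lost without any single library of 0 h or any tbGFP-positive library of 24 h.

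With tbGFP-positive set against tbGFP-negative cells, 11 protein-coding hosts were called higher and 2 lower before sorbitol, 9 and 12 after 6 h, and 6 and 1 after 24 h. Before sorbitol these were 5.24% and 0.952% of the 210 tested, against 6.66% and 0.449% of all genes. After 6 h they were 4.29% and 5.71%, against 6.92% and 5.22%, and after 24 h 2.86% and 0.476%, against 5.35% and 0.113%. Before sorbitol the largest differences were those of Samd12 (3.84 ± 0.50, adjusted p = 6.06e-05), Trpm2 (3.63 ± 1.01, adjusted p = 0.04) and Slit3 (2.70 ± 0.62, adjusted p = 0.0114). After 6 h Ranbp1, Sh3d19 and Rab3gap2 had 27, 21 and 23 counts in tbGFP-negative cells against 0 in the other fraction. After 24 h Iars was higher by 2.61 ± 0.62 (adjusted p = 0.0179), Samd12 by 1.73 ± 0.43 (adjusted p = 0.0225), and AY761184 had 70 counts against 1. Leaving out single libraries moved the number called from 5 to 28 before sorbitol, from 5 to 58 after 6 h and from 0 to 17 after 24 h; the lowest came without a library of the fractions compared and the highest without one of tbGFP-positive cells at 6 h.

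Of 19 genes for proteins of the snoRNA particles and their assembly factors, 17 could be tested. This list and those of decay factors, decay substrates and mTORC1 regulators below were chosen with earlier results of these data known. Their shares called are given as a description. Against 0 h none was called at 6 h in either fraction. Rpap3, an assembly factor, was higher in tbGFP-positive than in tbGFP-negative cells before sorbitol by 0.61 ± 0.17 (adjusted p = 0.0395). Nop10, a core protein of H/ACA particles, fell at 24 h in tbGFP-negative cells by -0.59 ± 0.15 (adjusted p = 0.0352). Fbl, the methyltransferase of C/D particles, was lower in tbGFP-positive than in tbGFP-negative cells at 6 h by -0.70 ± 0.19 (adjusted p = 0.0253), as was Shq1, an assembly factor of H/ACA particles, by -3.10 ± 0.88 (adjusted p = 0.0332, on 12 against 101 counts). The 2 lower at 6 h were 11.8% of those tested, against 5.22% of all genes. Rpap3 and Nop10 were each 5.88%, against 6.66% of all genes called higher and 1.29% called lower in the same comparisons.

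Of 22 factors of nonsense-mediated decay, 18 could be tested, and 3 rose at 6 h in tbGFP-negative cells. Magoh, of the exon junction complex, rose by 1.17 ± 0.23 (adjusted p = 0.00876), Upf2, which bridges that complex to Upf1, by 0.94 ± 0.19 (adjusted p = 0.0087), and Etf1, the release factor eRF1, by 0.60 ± 0.12 (adjusted p = 0.0114). The 3 were 16.7% of those tested, against 3.22% of all genes. Nothing is read from this share or those below, given how the list was chosen. The other 15 did not pass, and the list's median was 0.01. In tbGFP-positive cells at 6 h 1 (5.56%) fell, against 3.76% of all genes. It was Smg1, the kinase of Upf1, which fell by -0.87 ± 0.19 (adjusted p = 0.0209). In the tbGFP-positive fraction set against the negative one at 6 h 5 of the 18 (27.8%) were lower, against 5.22% of all genes. Among them were Smg1 at -1.44 ± 0.20 (adjusted p = 9.96e-05), Upf3b at 49.8 ± 3.19 against 99.4 ± 10.2 (adjusted p = 0.00384) and Upf2 at -0.88 ± 0.19 (adjusted p = 0.00532). Smg1 was also lower at 0 h, by -0.84 ± 0.19 (adjusted p = 0.0108), and Dcp2, a decapping enzyme, rose at 24 h in tbGFP-negative cells by 0.84 ± 0.20 (adjusted p = 0.0285). Each was 5.56% of those tested, against 0.449% of all genes called lower and 2.70% called higher in the same comparisons. Between fractions at 6 h 1012 of 19384 genes were called lower. With only the compared libraries in the fit it was 22 of 14201, and with upper-quartile factors 2454. How the calls of this list, and of the snoRNA particle, decay substrate and mTORC1 lists, fare under the alternatives was not examined. The decay activity itself was not measured.

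Of 7 coding RNAs known as substrates of this decay (Gadd45a, Gadd45b, Atf4, Ddit3, Atf3, Tbl2 and Map3k14), 6 could be tested. Gadd45b rose by 3.10 ± 0.70 (adjusted p = 0.0212) in tbGFP-positive cells at 6 h, from 3.35 ± 3.35 to 29.7 ± 7.37, and no other was called in any comparison. That call was 16.7% of the 6 genes, against 2.14% of all genes. The median change of the 6 at 6 h was 0.78 in tbGFP-negative cells, with 5 of 6 above 0, and 0.86 in tbGFP-positive cells, with 4 of 6. The medians of all genes were 0.05 and -0.05. Whether decay or transcription moved these 6 genes was not tested.

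Of 16 regulators of mTORC1 and TOP RNAs, 15 could be tested. In tbGFP-negative cells at 6 h 2 (13.3%) rose, against 3.22% of all genes. Since earlier results of these data were known when the list was chosen, nothing is read from its shares. The 2 that rose encode inhibitors of mTORC1. Ddit4 (REDD1) went from 117 ± 3.79 to 652 ± 43.5, a rise of 2.47 ± 0.30 (adjusted p = 0.000236), and Sesn2 from 508 ± 26.4 to 1980 ± 337, a rise of 1.96 ± 0.42 (adjusted p = 0.0213). No regulator was called at 6 h in tbGFP-positive cells, where Ddit4 was already higher than in tbGFP-negative cells at 0 h, by 1.71 ± 0.29 (adjusted p = 0.000946), as it was at 24 h, by 1.69 ± 0.29 (adjusted p = 0.00109). Eif4ebp2, a repressor of translation that mTORC1 inactivates, fell at 24 h in tbGFP-negative cells by -1.16 ± 0.27 (adjusted p = 0.0208). It was 6.67% of those tested, against 1.29% of all genes. The Ddit4 differences between fractions at 0 h and 24 h were also 6.67% each, against 6.66% and 5.35% of all genes.

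The genes whose levels over the 12 libraries were most like Gas5 were sought among 6813 genes, members left out, with a mean of at least 10 CPM. The measure was Pearson's r of log2 CPM, which is a description, since the libraries fall into 6 groups of 2 and share their depth and scaling. The 5 most alike were Fbxo32 (0.938), a ubiquitin ligase of muscle wasting, Foxj1 (0.93), a transcription factor of motile cilia, Rian (0.915), Slc38a2 (0.911), an amino acid transporter induced by hyperosmotic stress, and Zpr1 (0.91). Slc38a2 had group means of 1000, 3640 and 1450 at 0, 6 and 24 h in tbGFP-negative cells and of 622, 2100 and 1260 in tbGFP-positive cells. Among the members, Gas5 and 1110038B12Rik had an r of 0.954, Gas5 and Snhg6 0.649, and Gas5 and Snhg5 -0.421.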

How the data were processed

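Sorted cells gave total RNA for a stranded library kit, per the labels' protocols. HISAT2, featureCounts, FastQC, DESeq2 and the build mm10 are named, without versions, per the submitters' processing notes; the strand and overlap settings are not given in the sources used here. The deposited files hold raw counts per transcript. Of 142446 transcripts, 141536 matched GENCODE M21 and were summed per gene, although gene counts had been planned for; the 910 others (0.0606% to 0.0903% of counts) were left out, and 0 columns were unmapped.

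The 19384 genes that reached 10 counts in 2 libraries or more were fitted with edgeR 4.0.16 (R 4.3.3; TMM factors of 0.86 to 1.23, robust quasi-likelihood F test, 6 group means over 12 libraries). Adjusted p is Benjamini-Hochberg over all genes, threshold 0.05; SE is the change divided by the square root of F. On simulated data for the 2 fractions at 24 h, the test on 19384 genes called 23% of the genes changed 2-fold and 84% of those changed 4-fold. The changed genes were drawn from those with a mean of at least 50 counts, so these shares need not hold for genes with fewer. Alternatives included DESeq2 1.42.0.

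Members and lists were chosen with earlier results of these data known. From each list up to 3 called genes with the largest change were named per comparison, with counts in place of a fold where a group had 0 or 1 count; the other called long noncoding hosts, and Snhg17, were named after their values were seen. Same-numbered replicates did not deviate together (r of -0.0401 to 0.0297 between groups), so the numbers were not used as pairs.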

Additional observations from a re-analysis of the deposited data

Results flagged for a closer look

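Rian differed between the fractions in its change from 0 h to 24 h: the gap between tbGFP-positive and tbGFP-negative cells moved by 1.32 ± 0.27 (adjusted p = 0.0271, edgeR's quasi-likelihood test, n = 2 libraries a group). Both tbGFP-positive libraries were at or above 165 normalised CPM at 24 h, from 47.1 and 59.6, while tbGFP-negative ones went from 107 and 129 to 158 and 141. The call was lost in 7 of 21 alternatives, each of which left out 1 library, with adjusted p up to 0.216.

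Gas5 lay lower in both tbGFP-positive libraries than in both tbGFP-negative ones at 0 h and at 6 h and higher in both at 24 h (0.48). 1110038B12Rik did the same at 6 h and 24 h (0.29). Snhg5 did the opposite, higher in tbGFP-positive cells at 6 h and lower at 24 h (-1.05). In the fit no member's change of the gap from 0 h to 6 h or to 24 h was called, and the change from 6 h to 24 h was not tested. By library totals alone the values at 24 h were 0.05 for Gas5 and -0.13 for 1110038B12Rik.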

How the results depend on the processing

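With 2 libraries a group and counts on short stretches, changes below 2-fold are at the limit of these data. The directions of Gas5 and 1110038B12Rik with time held in every alternative that gave them a value. Without retained-intron transcripts only Snhg6 passes the filter, so no median could be given. Some signs turned with scaling: Snhg5 between fractions at 6 h was -0.04 by upper-quartile factors, and by library totals alone 1110038B12Rik between fractions at 24 h was -0.13, the change in the Gas5 gap from 0 h to 6 h 0.20 and its median over members 0.15. 1110038B12Rik between fractions at 0 h turned to -0.25, -0.31 and, without replicate 1 of tbGFP-negative cells, -0.04, and Snhg5 to 0.10 without replicate 2 of tbGFP-negative and 0.18 without replicate 1 of tbGFP-positive cells. Over all alternatives and comparisons the sign turned in 1 of 186 values of Gas5, 4 of 177 of 1110038B12Rik, 9 of 186 of Snhg5 and 6 of 195 of Snhg6. Upper-quartile factors moved the median difference between fractions to -0.74, -1.12 and -0.13 at 0, 6 and 24 h; library totals moved it to -0.80 at 0 h and -0.35 at 24 h, and the median change at 6 h in tbGFP-negative cells to 1.31. Totals shift the median of all genes between fractions by -0.41 at 0 h and -0.48 at 24 h. The causes were not tested.

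Long noncoding hosts called between fractions at 0 h were 6 (upper-quartile), 6 (totals), 4 (DESeq2), 4 (no filter) and 5 (without tbGFP-positive libraries at 6 h). With only the compared libraries there were 0 at 6 h and 2 at 24 h between fractions, 11 and 2 at 6 h and 24 h in tbGFP-negative cells and 1 at 6 h in tbGFP-positive cells; totals gave 2 at 24 h between fractions, DESeq2 10 at 6 h in tbGFP-positive cells, and leaving out the tbGFP-positive libraries at 6 h gave 10 at 6 h in tbGFP-negative cells. Protein-coding hosts between fractions were 20 (upper-quartile), 27 (totals) and 27 (without tbGFP-positive 6 h) at 0 h, 45 (upper-quartile) and 0 (compared libraries) at 6 h, and 16 (totals), 12 (DESeq2), 17 (without tbGFP-positive 6 h) and 27 (compared libraries) at 24 h. With time they were 36 (without tbGFP-positive 6 h) and 63 (compared libraries) at 6 h, and 16 (DESeq2), 8 (no filter), 22 (without tbGFP-positive 6 h) and 54 (compared libraries) at 24 h in tbGFP-negative cells. In tbGFP-positive cells they were 34 (DESeq2), 25 (no filter) and 0 (compared libraries) at 6 h, and 1 (totals), 4 (DESeq2), 4 (no filter), 1 (without retained introns), 10 (without tbGFP-positive 6 h) and 1 (compared libraries) at 24 h.

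Leaving out each library in turn, the median of the members between fractions ran from -0.49 to -0.16 at 0 h, -0.86 to -0.70 at 6 h and 0.02 to 0.27 at 24 h. With time it ran from 1.47 to 1.66 and 0.34 to 0.52 in tbGFP-negative and from 0.92 to 1.62 and 0.86 to 1.38 in tbGFP-positive cells, and for the gap from -0.56 to -0.10 at 6 h and 0.25 to 0.60 at 24 h. Long noncoding hosts called ranged from 1 to 6, 2 to 12 and 0 to 1 between fractions at 0, 6 and 24 h, and from 2 to 10, 0 to 0, 4 to 9 and 1 to 1 at 6 and 24 h in tbGFP-negative and then tbGFP-positive cells. Protein-coding hosts ranged from 5 to 28, 5 to 58 and 0 to 17, and from 3 to 36, 2 to 22, 6 to 65 and 0 to 11.

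With the replicate number as a block, no count of called hosts moved by over 1.5 times: long noncoding hosts called at 6 h were 6 in each fraction with it. Fitting single transcripts, an alternative chosen after seeing the data, gave Gas5 1.82 at 6 h in tbGFP-negative cells.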
